A study of Homo sapiens with 6 samples.

Results

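The nuclear-encoded subunits of the respiratory chain and ATP synthase were followed in MH7A, a line of rheumatoid arthritis synovial fibroblasts immortalised with a viral large T antigen. All cells had received 10 ng/ml of TNFα, an inflammatory cytokine of the arthritic joint. In the TNF plus LED group (replicates 4, 6 and 10) the cells were also lit by a 630 nm LED for 15 min, given 3 times, and the TNF group (replicates 2, 8 and 14) had the cytokine alone. No unlit group without TNFα, sham lamp or warmed control entered the comparison, so light and any warming by the lamp cannot be told apart. Members were taken by gene symbol, with no measured value involved: 100 of the 19475 symbols in the count table began with NDUFA, NDUFB, NDUFC, NDUFS, NDUFV, UQCR, ATP5 or COX4 to COX8, or were CYC1 or an SDH subunit. The NDUFA prefix also takes in the NDUFAF genes, which encode assembly factors of complex I and not subunits, and 2 symbols, NDUFC2-KCTD14 and ATP5MF-PTCD1, are readthrough transcripts.

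The respiratory chain passes electrons from NADH (complex I) and succinate (complex II) through ubiquinone, complex III and cytochrome c to oxygen at complex IV, and complex V, the ATP synthase, uses the proton gradient that complexes I, III and IV build. Most subunits are encoded in the nucleus, made in the cytosol and imported, while some subunits of complexes I, III, IV and V are encoded in mitochondrial DNA. Complex IV, cytochrome c oxidase, has been proposed as the absorber of red light in cells, and its light-absorbing haem and copper centres lie in mitochondrially encoded subunits. The table held 0 mitochondrially encoded genes, so the mitochondrially encoded subunits were not analysed here.

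Many nuclear genes of the chain are known targets of GABP (also called NRF-2), NRF1 and YY1, the factors tied to mitochondrial biogenesis. RefSeq promoters (GRCh38.p14, 250 bases before to 50 after the start) were matched for 81 of the 100 members, of which 78 were among the tested genes. The core GABP motif CCGGAAG, read on both strands, lay in 28.2% of these 78 promoters and in 10.6% of all 27305 promoters. The NRF1 motif, GCGC and TGCGC with any 1 base between, lay in 21.8% of member promoters and 6.05% of all, and the YY1 motif AAGATGG in 24.4% and 6.04%. The heat shock factor motif, TTC, GAA and TTC with any 2 bases between each, was found in 0 of the 78, against 0.502% of all promoters, and the ATF4 motif TGATG, any base, then AA in 1, that of NDUFS6, against 3.75%. No member held overlapping GABP and YY1 matches. The 78 belong to tested genes, while the 27305 also include genes not tested here, so these shares compare unlike sets. Letter matches are a description of these windows and do not show binding. Of the 4 promoters shown, those of NDUFAF4, COX4I1 and SDHD hold GABP letters and that of COX7A2L none of the 5 motifs; each gene is taken up again with its values. Capitals mark the GABP match and, in SDHD, also the NRF1 match, the first of its capital runs.
NDUFAF4, chr6:96897842-96898141, minus strand, GABP match starting 147 bases before the start: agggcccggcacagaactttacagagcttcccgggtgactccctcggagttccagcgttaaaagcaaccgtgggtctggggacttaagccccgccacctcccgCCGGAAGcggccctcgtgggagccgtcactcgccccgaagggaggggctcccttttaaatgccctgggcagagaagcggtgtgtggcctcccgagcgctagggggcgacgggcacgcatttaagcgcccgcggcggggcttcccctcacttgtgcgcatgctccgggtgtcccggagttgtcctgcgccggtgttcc
COX4I1, chr16:85799445-85799744, plus strand, GABP match on the opposite strand from base 3 after the start: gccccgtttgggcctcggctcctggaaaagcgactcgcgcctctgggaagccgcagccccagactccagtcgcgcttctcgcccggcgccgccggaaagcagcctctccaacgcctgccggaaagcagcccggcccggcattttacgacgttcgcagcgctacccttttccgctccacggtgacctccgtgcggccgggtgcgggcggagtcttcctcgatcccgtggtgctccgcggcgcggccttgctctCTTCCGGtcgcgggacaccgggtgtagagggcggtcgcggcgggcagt
SDHD, chr11:112086623-112086922, plus strand, GABP match 77 and NRF1 match 110 bases before the start: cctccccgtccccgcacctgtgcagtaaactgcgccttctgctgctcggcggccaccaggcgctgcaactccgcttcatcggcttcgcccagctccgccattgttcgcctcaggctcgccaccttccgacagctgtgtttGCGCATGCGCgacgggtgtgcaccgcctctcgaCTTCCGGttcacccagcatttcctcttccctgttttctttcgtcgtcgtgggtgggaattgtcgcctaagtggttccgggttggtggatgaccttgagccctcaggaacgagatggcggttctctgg
COX7A2L, chr2:42361168-42361467, minus strand, with no match: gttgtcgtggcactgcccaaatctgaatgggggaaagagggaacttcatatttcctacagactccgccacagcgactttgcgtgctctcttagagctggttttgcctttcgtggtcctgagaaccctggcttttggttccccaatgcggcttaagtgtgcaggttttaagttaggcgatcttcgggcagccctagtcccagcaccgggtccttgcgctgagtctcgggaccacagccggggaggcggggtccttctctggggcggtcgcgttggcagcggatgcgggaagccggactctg

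Deposited totals were 94615430 to 108074289 estimated counts in TNF plus LED libraries and 86000253 to 107139947 in TNF libraries, where 1 sequenced fragment was worth about 4 units. All 12 fibroblast markers lay above the limit that 3 fragments set in every library (summed 34600 to 37400 CPM in TNF plus LED and 39500 to 42700 CPM in TNF), while 3 of 8 leukocyte, 3 of 5 endothelial and 2 of 6 epithelial markers did. Those lists summed to 115 to 155, 67.3 to 83.6 and 37.2 to 55.6 CPM in TNF plus LED, against 93.4 to 139, 81.6 to 118 and 34.3 to 41.1 CPM in TNF. Leukocyte CD3E and LYZ, endothelial CDH5 and epithelial EPCAM, CDH1, KRT5 and KRT14 were at or below the limit in all 6. CPM is a gene's count scaled to a common library total. The LED libraries carried a heat shock response: 22 of 25 heat shock and chaperone genes rose, where 2.44% of all tested genes did. The list took 4.32%, 5.65% and 3.17% of counts in TNF plus LED replicates 4, 6 and 10. In TNF replicates 2, 8 and 14 it took 1.09%, 1.01% and 1.04%. Of 20 G2/M genes 15 fell, where 2.73% of all tested genes did. Both lists were chosen with earlier results of these data known. As in any bulk sample, fewer transcripts per cell and fewer cells making them cannot be told apart.

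None of the respiratory chain members was called by the test used. Of 95 members that passed the filter on low counts, 0 passed in either direction with LED, at a threshold of 0.05 on the adjusted p (edgeR quasi-likelihood test, Benjamini-Hochberg over 13794 genes), where 5.17% of all tested genes were called, 2.44% higher and 2.73% lower. At an unadjusted p below 0.05 there were 4 members (4.21%), against 22.7% of all genes. DESeq2 called 2 members, COX6B2 and NDUFAF4, where it called 12.7% of all genes, and limma-voom called 0, where it called 4.78%. The 3 TNF plus LED values lay all above or all below the 3 TNF values for 7 members (7.37%), against 32.4% of all genes. NDUFAF4, NDUFAF7 and COX6B2 were the 3 whose LED libraries were all higher, and NDUFS1, NDUFAF6 and ATP5S were among the 4 whose LED libraries were all lower. COX6B2 is among the 4 members at an unadjusted p below 0.05, the 2 DESeq2 calls and these 7 members. It passed the filter on low counts only through the LED libraries, so its part in these counts is description only.

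The median log2 fold change of the 95 members was 0.06, against 0.01 over all genes, with 64 members positive and 31 negative. By complex the median was 0.02 for the 37 complex I subunits, 0.17 for the 8 NDUFAF assembly factors, 0.02 for complex II, 0.13 for complex III, 0.12 for complex IV and 0.08 for complex V. For 88 members (92.6%) the 95% interval of the difference lay within 2-fold either way, and for 50 (52.6%) within 1.5-fold; over all genes these shares were 59.8% and 20.4%. The 7 members whose interval reached past 2-fold were NDUFA5, NDUFAF4, COX6B2, COX7A2L, NDUFA4L2, ATP5S and NDUFC2-KCTD14. The other 5 members did not pass the filter. COX4I2, COX6A2 and COX7B2 had 0 counts in every library, which allows up to 12 units in each, and COX8C and ATP5MGL reached at most that many in any library.

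**Figure D1:**
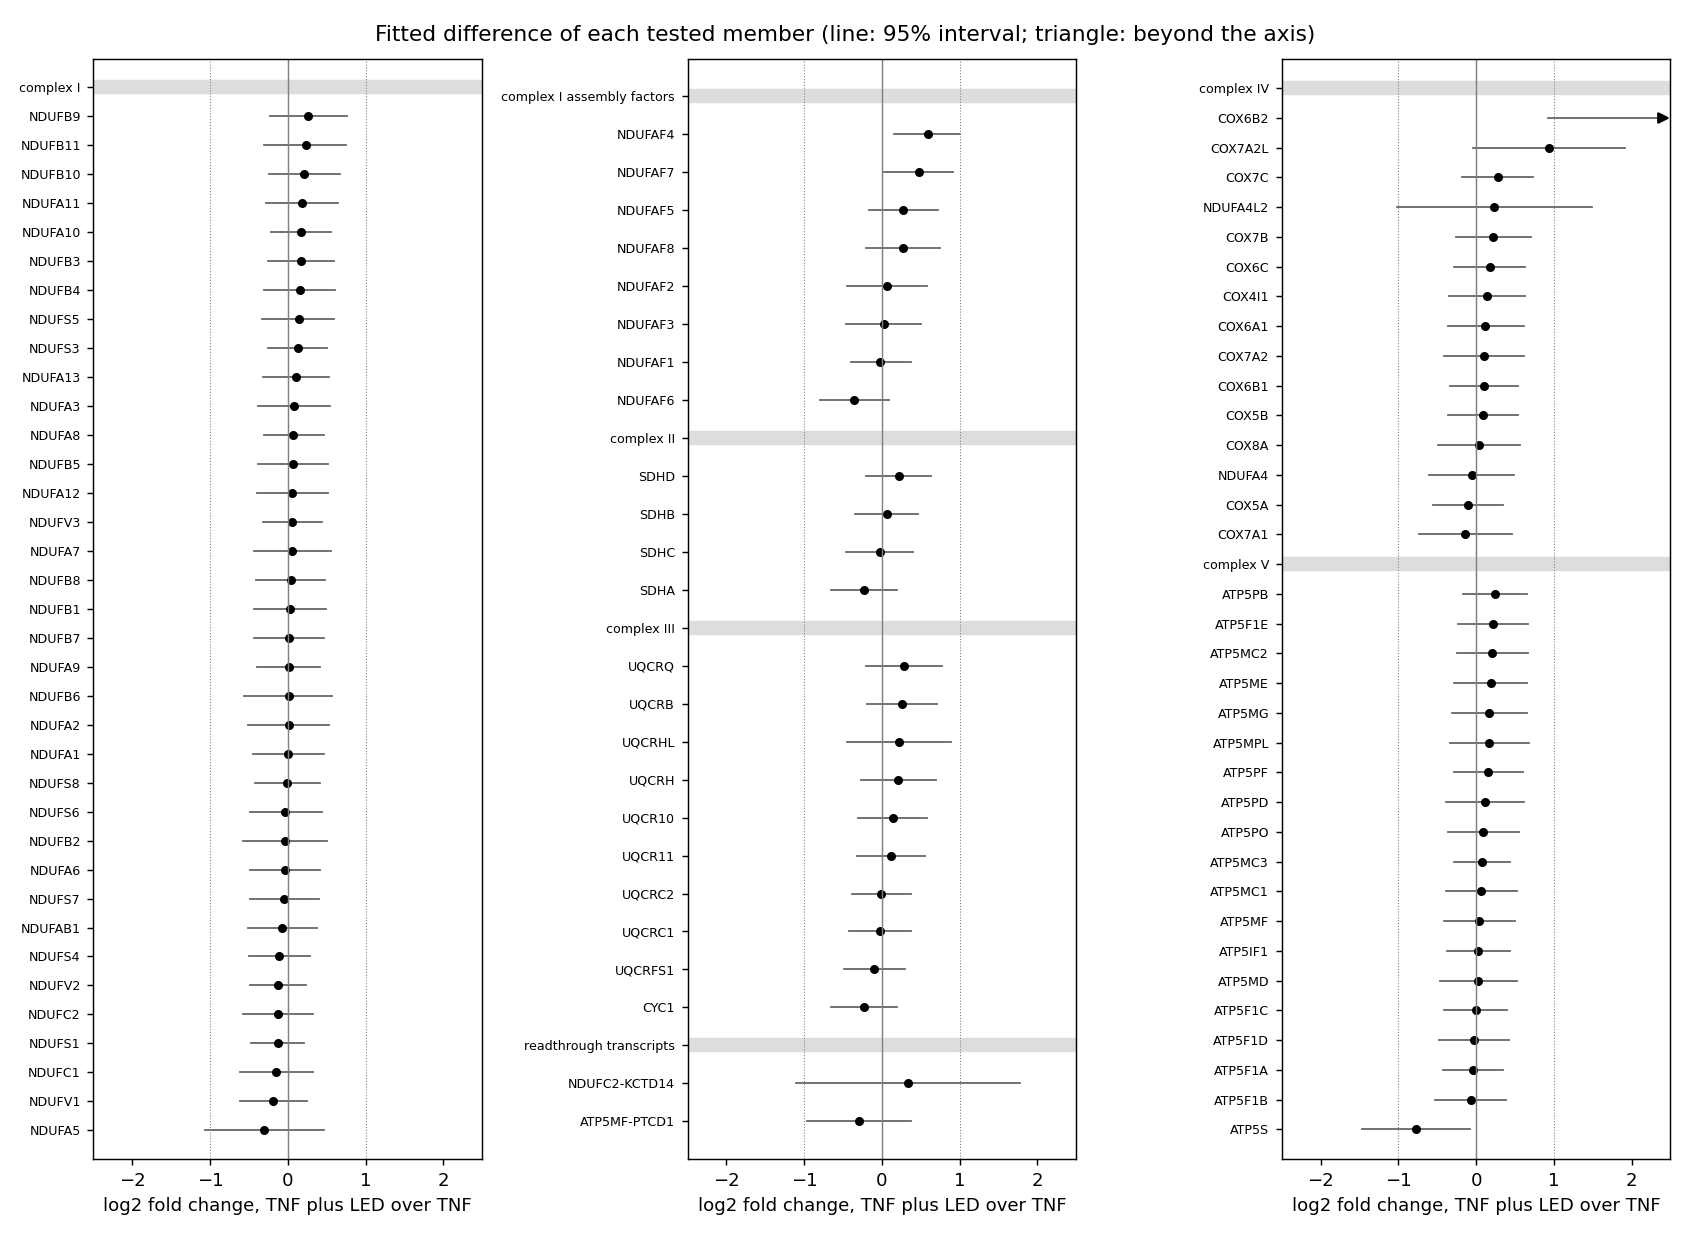
Fitted log2 fold change of TNF plus LED over TNF for 94 of the tested members, grouped by complex, with dots for estimates and lines for 95% intervals. The dotted lines mark 2-fold, and most intervals lie between them; the triangle stands for COX6B2, beyond the axis at 3.77.

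The members differed more between libraries of 1 group than between the groups. Of the 95, 62 (65.3%) were highest in TNF plus LED replicate 6, where 25.2% of all genes were, and 30 in TNF replicate 8 (31.6%, against 28.7%). None was highest in TNF plus LED replicates 4 or 10. The median member lay 0.06 below, 0.32 above and 0.20 below its 6-library log2 mean in TNF plus LED replicates 4, 6 and 10, and 0.09 below, 0.15 above and 0.16 below it in TNF replicates 2, 8 and 14. Summed over all members the level was 6078, 7875 and 5595 CPM in TNF plus LED replicates 4, 6 and 10, against 5990, 7095 and 5756 CPM in TNF replicates 2, 8 and 14. The group means were 6516 ± 1200 CPM with TNF plus LED and 6280 ± 715 CPM with TNF (SD, n = 3 each). Without the highest library of each group they were 5837 and 5873 CPM. That omission was chosen after the data were seen, so its means are description only.

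**Figure D2:**
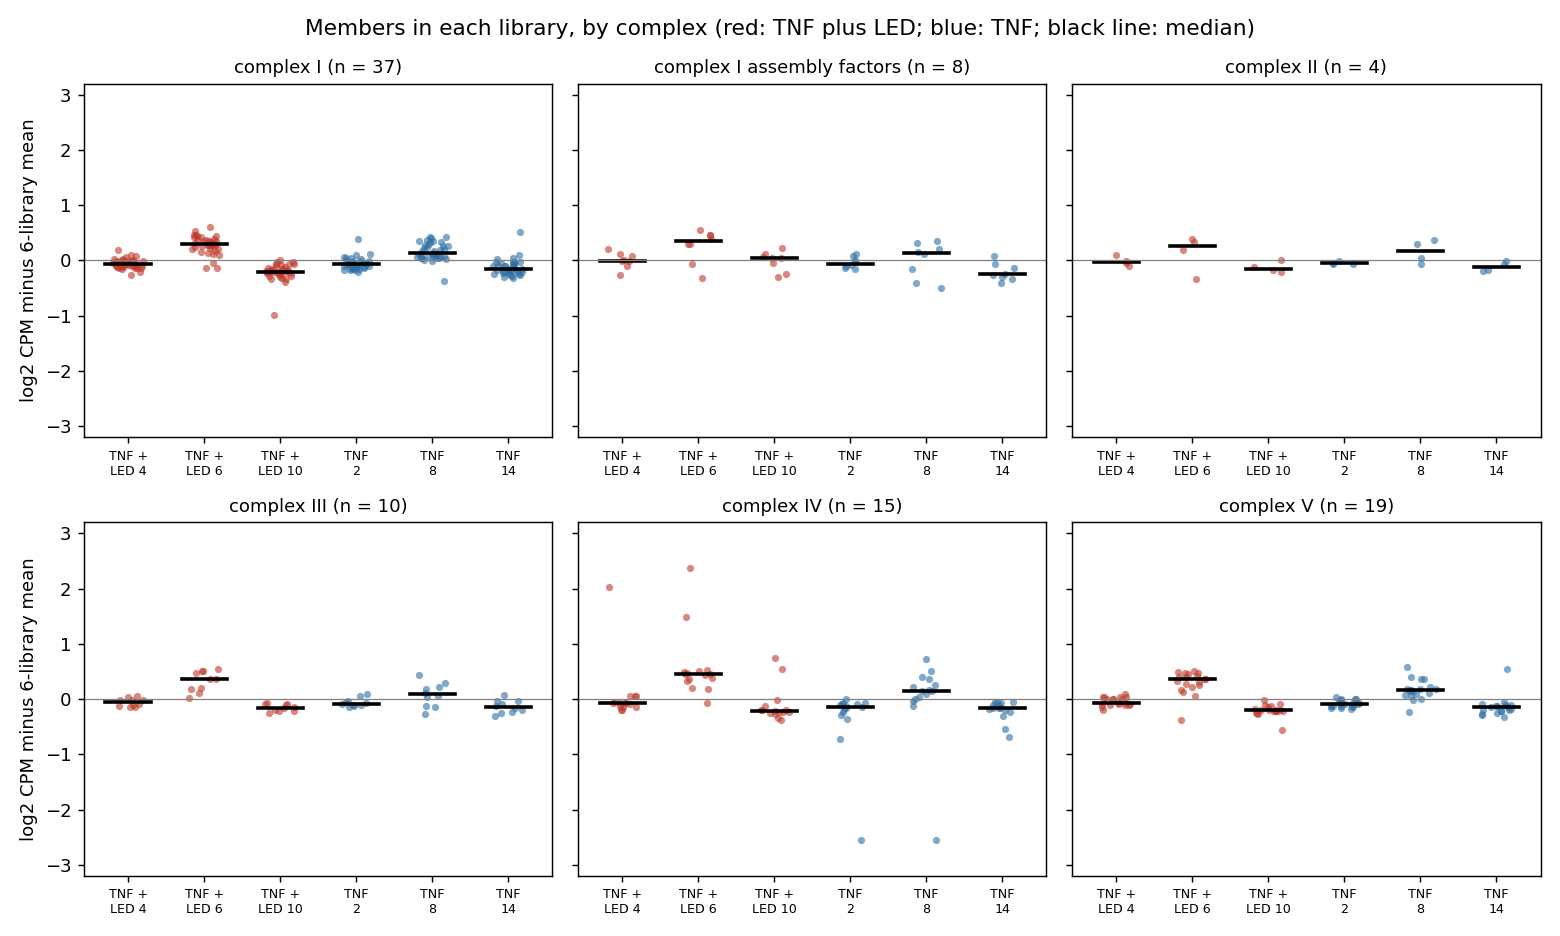
Each point is 1 member's log2 CPM minus its 6-library mean, by library and complex, with TNF plus LED in red, TNF in blue and the median as a black line. In every subunit panel the medians of TNF plus LED replicate 6 and TNF replicate 8 are the highest of their groups.

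Within each group the same library was highest in every complex. For complex I the sums were 1736, 2211 and 1612 CPM in TNF plus LED replicates 4, 6 and 10, against 1746, 2033 and 1677 CPM in TNF replicates 2, 8 and 14. For complex IV they were 854.4, 1286 and 768.3 CPM, against 822.3, 1011 and 799.7 CPM in the same TNF libraries. For complex V they were 2146, 2725 and 1971 CPM, against 2091, 2537 and 2016 CPM. TNF plus LED replicate 6 was the highest of 6 in complexes I, III, IV and V, and in complex II TNF replicate 8 was, with 331.3 CPM, against 316 CPM in TNF plus LED replicate 6. The median member of complex IV stood 0.46 above its mean in TNF plus LED replicate 6, against 0.29 for complex I and 0.26 for complex II.

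**Figure D3:**
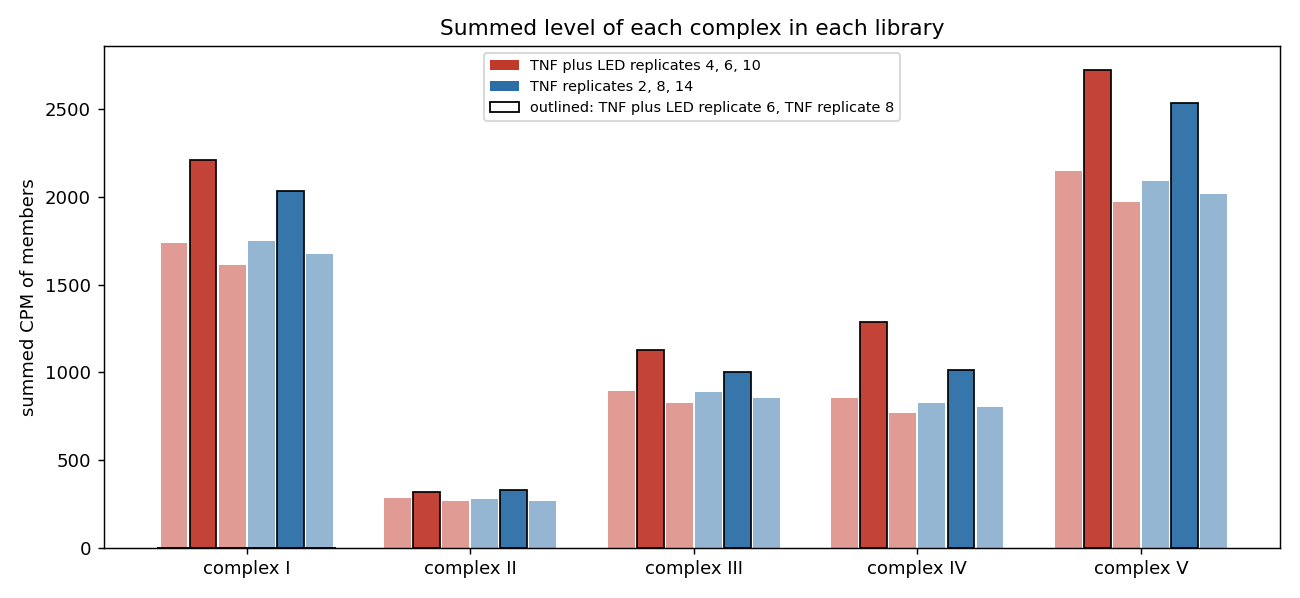
Summed CPM of the members of each complex in TNF plus LED replicates 4, 6 and 10 (red) and TNF replicates 2, 8 and 14 (blue), with TNF plus LED replicate 6 and TNF replicate 8 outlined. The outlined bars stand highest within each group, and the other bars of both groups are at like heights, such as 854.4 and 768.3 CPM with LED and 822.3 and 799.7 CPM with TNF for complex IV.

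Shorter transcripts stood higher in TNF plus LED replicate 6, and in part in TNF replicate 8. The members are short, with a median of 766 bases against 2550 over all genes with a length. In TNF plus LED replicate 6 the median deviation was 0.36 for the 60 members under 1 kb and 0.26 for the 35 longer ones, and 0.28 and -0.02 for all genes split in the same way. For TNF replicate 8 these medians were 0.16 and 0.11 for the members, and 0.13 and -0.01 for all genes. The median log2 fold change was 0.08 for the short and -0.01 for the longer members, against 0.07 and 0.00 for all genes. Across the 95 members, log2 length and log2 fold change had a Pearson correlation of 0.03 and a Spearman correlation of -0.14. Cytosolic ribosomal protein genes, which are also short and highly expressed, had a median log2 fold change of 0.34. Of 83 tested, 79 were highest in TNF plus LED replicate 6 and 0 were called, against 5.17% of all genes called. Their median deviation in TNF replicate 8 was -0.01, and 3 were highest there. With a length trend removed from each library the median of the respiratory chain members was -0.01. The part of length in the result was not tested.

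Complex I takes electrons from NADH through a flavin and a row of iron-sulfur clusters held by its core subunits. NDUFS1, the largest iron-sulfur subunit, had 91.7, 86.7 and 95.9 CPM in TNF plus LED replicates 4, 6 and 10, against 99.1, 98.2 and 102 CPM in TNF replicates 2, 8 and 14. All 3 LED libraries lay below all 3 TNF libraries, by a small margin (log2 fold change -0.13 ± 0.15 SE, edgeR adjusted p = 0.674). The core subunits NDUFS3, NDUFS7 and NDUFS8 and the flavin-site pair NDUFV1 and NDUFV2 had log2 fold changes between -0.19 (NDUFV1) and 0.13 (NDUFS3), with overlapping groups. Of the accessory subunits NDUFB9 and NDUFB10 of the membrane arm had low p for the complex, at 0.26 ± 0.22 and 0.21 ± 0.20 (edgeR adjusted p = 0.530 and 0.579). NDUFA5, an accessory subunit of the matrix arm with 12 pseudogenes by name, had 30.7, 32.1 and 13.5 CPM with LED, against 35.3, 20.8 and 38.3 CPM with TNF, and was low in TNF plus LED replicate 10 and TNF replicate 8. Per kilobase of transcript, NDUFS5 was the most abundant complex I subunit, at 290 ± 76.0 CPM per kb with LED and 264 ± 18.6 CPM per kb with TNF.

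Of the 8 NDUFAF assembly factors 3 had groups that did not overlap (37.5%), a share near the 32.4% of all genes. NDUFAF4, whose product acts early in the assembly of complex I and whose promoter with its GABP letters is printed above, had 19.0, 24.2 and 17.8 CPM in TNF plus LED replicates 4, 6 and 10, against 14.9, 12.3 and 13.4 CPM in TNF replicates 2, 8 and 14. Every LED library lay above every TNF library (log2 fold change 0.59 ± 0.19, edgeR adjusted p = 0.106, and 0.0453 with DESeq2). NDUFAF7, a methyltransferase that acts on a complex I subunit, had 9.69, 11.7 and 10.5 CPM with LED, against 8.38, 6.34 and 8.14 CPM with TNF (0.48 ± 0.20, edgeR adjusted p = 0.188). NDUFAF6 went the other way, with 6.52, 6.27 and 8.08 CPM with LED, against 8.50, 9.97 and 8.27 CPM with TNF (-0.36 ± 0.20, edgeR adjusted p = 0.326). So of 3 assembly factors with separated groups 2 were higher and 1 lower, none past the threshold. NDUFAF1, NDUFAF2, NDUFAF3, NDUFAF5 and NDUFAF8 overlapped, with log2 fold changes of -0.02 to 0.27.

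Complex II, which is also an enzyme of the TCA cycle, has 4 subunits, all nuclear. The flavoprotein SDHA had 82.8, 65.9 and 83.6 CPM in TNF plus LED replicates 4, 6 and 10, against 82.5, 107 and 82.6 CPM in TNF replicates 2, 8 and 14. It is an exception to the library order: 4 libraries were nearly level, TNF plus LED replicate 6 was low and TNF replicate 8 high (-0.23 ± 0.19, edgeR adjusted p = 0.512). The iron-sulfur subunit SDHB and the membrane anchors SDHC and SDHD had log2 fold changes of 0.06, -0.03 and 0.22. SDHD, with GABP and NRF1 letters in the promoter printed above, had 47.5, 57.8 and 39.2 CPM with LED, against 42.4, 42.6 and 39.2 CPM with TNF.

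Complex III moves electrons from ubiquinol to cytochrome c. CYC1, its cytochrome c1, had 108, 116 and 95.9 CPM in TNF plus LED replicates 4, 6 and 10, against 109, 154 and 112 CPM in TNF replicates 2, 8 and 14 (-0.23 ± 0.19, edgeR adjusted p = 0.511). The groups overlapped, and TNF replicate 8 was the high library. The Rieske iron-sulfur protein UQCRFS1 had a log2 fold change of -0.10 ± 0.18. The small subunits UQCRB and UQCRQ were at 0.26 ± 0.20 and 0.28 ± 0.22 (edgeR adjusted p = 0.487 and 0.493), both highest in TNF plus LED replicate 6. The hinge protein gene UQCRH and its near-identical copy UQCRHL share reads, so the 0.500%, 0.546% and 0.580% of their joint level per kb that fell to UQCRHL with LED, against 0.576%, 0.476% and 0.567% with TNF, are uncertain.

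Complex IV is the proposed absorber, and 15 of its 19 nuclear-encoded members were tested. COX4I1, the largest nuclear-encoded subunit, had 90.4, 136 and 81.1 CPM in TNF plus LED replicates 4, 6 and 10, against 85.4, 103 and 91.5 CPM in TNF replicates 2, 8 and 14 (0.14 ± 0.22, edgeR adjusted p = 0.754). TNF plus LED replicate 6 stood above all others and the other LED libraries lay within or below the TNF values. COX5A and COX5B were at -0.10 and 0.09. COX6A1, COX6B1, COX6C, COX7A2, COX7B, COX7C and COX8A, the small subunits around the core, lay between 0.04 (COX8A) and 0.28 (COX7C), all with overlapping groups and all highest in TNF plus LED replicate 6. NDUFA4, named as a complex I subunit but known as one of complex IV, was at -0.05 ± 0.24.

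Mammals have tissue-specific copies of several complex IV subunits. The lung and hypoxia form COX4I2, the muscle form COX6A2 and the testis form COX7B2 were at 0 counts in all 6 libraries. COX7A1, the heart and muscle form, made up 6.21%, 5.20% and 6.18% of the summed COX7A1 and COX7A2 level per kb in TNF plus LED replicates 4, 6 and 10, against 5.46%, 7.54% and 7.01% in TNF replicates 2, 8 and 14. NDUFA4L2, the hypoxia-induced relative of NDUFA4, had 0.566, 0.517 and 0.809 CPM with LED, against 0.323, 0.915 and 0.369 CPM with TNF (0.23 ± 0.56, edgeR adjusted p = 0.844).

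A trace member and a supercomplex factor held the largest positive differences. COX6B2, a testis form of COX6B, had 0.453, 0.586 and 0.176 CPM in TNF plus LED replicates 4, 6 and 10, against 0, 0 and 0.0923 CPM in TNF replicates 2, 8 and 14. That is about 31 fragments in the LED libraries and 2 in the TNF libraries, each pooled over the group. The gene passed the filter on low counts only through the LED libraries, every TNF library being under the limit of 12 units, so its separated groups and its adjusted p (edgeR 0.117, DESeq2 0.0321) are given as description only. It shares exon sequence on its strand with a neighbouring gene, and at 0.205% or less of the joint level of COX6B1 and COX6B2 per kb it was a trace in every library. COX7A2L, which links complexes III and IV in supercomplexes, had 43.6, 141 and 43.7 CPM with LED, against 39.3, 48.8 and 31.1 CPM with TNF. TNF plus LED replicate 6 alone was high, 1.69 above the mean of the other LED libraries on the log2 scale, and these other libraries lay within the TNF range. The log2 fold change was 0.94 ± 0.43 (edgeR adjusted p = 0.237), and 0.14 without TNF plus LED replicate 6 (edgeR adjusted p = 0.791). Endoplasmic reticulum stress genes, a list of 20 added after the data were seen, had median deviations of 0.06, 0.93 and -0.05 in TNF plus LED replicates 4, 6 and 10, against -0.24, -0.54 and -0.29 in TNF replicates 2, 8 and 14; their part in the COX7A2L value was not tested.

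**Figure D4:**
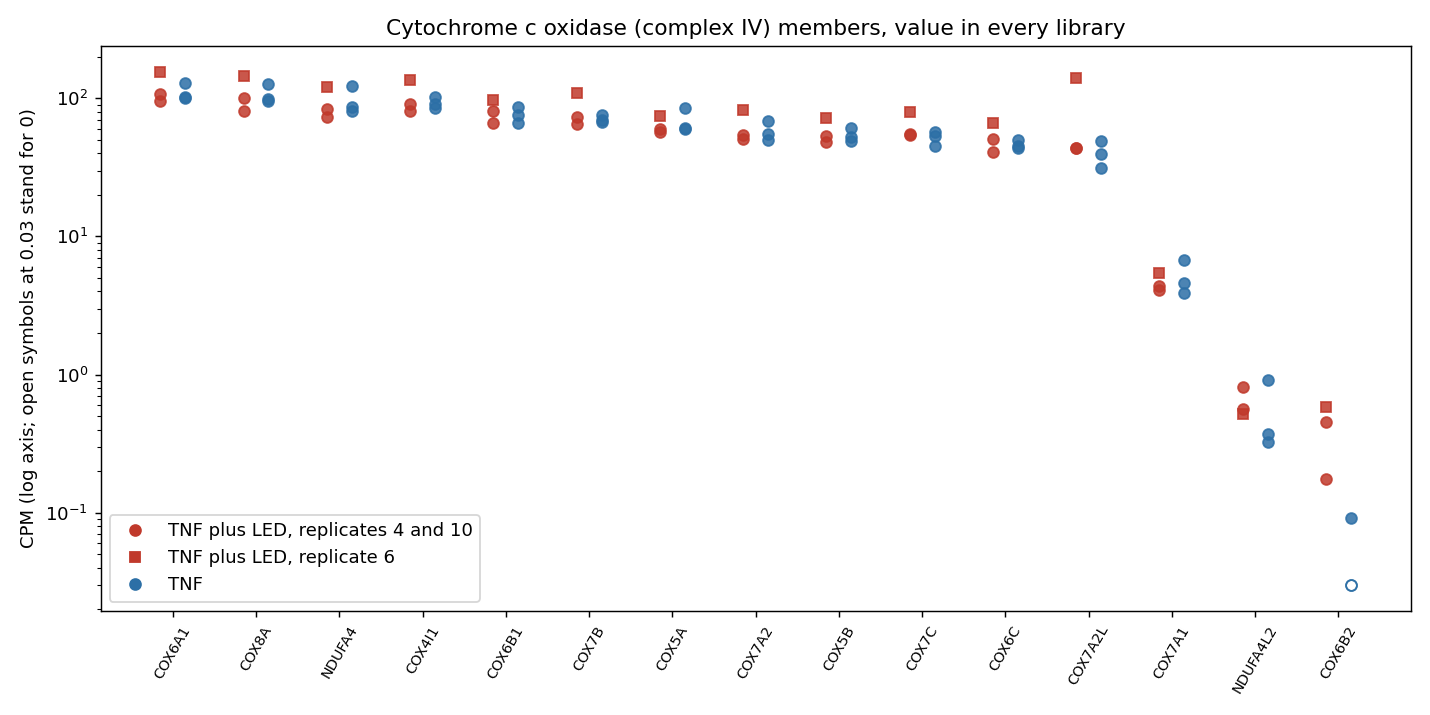
CPM of the 15 tested complex IV members in every library on a log axis, with TNF plus LED in red at the left of each pair and TNF in blue at the right; squares mark TNF plus LED replicate 6. COX7A2L is the 1 abundant member whose square stands far from the other points (141 CPM), and COX6B2 lies below 1 CPM throughout.

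In complex V, ATP5F1B, the beta subunit that forms ATP, had 549, 690 and 518 CPM in TNF plus LED replicates 4, 6 and 10, against 530, 765 and 552 CPM in TNF replicates 2, 8 and 14 (-0.07 ± 0.21, edgeR adjusted p = 0.871). The groups overlapped, with TNF plus LED replicate 6 and TNF replicate 8 high. Per kilobase it was the most abundant of all members, at 319 ± 49.8 CPM per kb with LED and 335 ± 70.6 CPM per kb with TNF. The small subunit ATP5MF followed in complex V, at 267 ± 60.6 CPM per kb with LED and 259 ± 31.3 CPM per kb with TNF. The alpha subunit ATP5F1A was at -0.04 ± 0.17, and its level per kb was 159 ± 18.6 with LED and 163 ± 15.4 with TNF. Of the peripheral stalk, ATP5PB was at 0.24 ± 0.18 (edgeR adjusted p = 0.480), and ATP5F1E, the small epsilon subunit of the central stalk, at 0.22 ± 0.20 (0.562). ATP5IF1, the inhibitor of reverse ATP hydrolysis, was at 0.03 ± 0.18. ATP5S, a low-level factor named for the coupling of the synthase, had 1.39, 1.22 and 1.07 CPM with LED, against 1.58, 2.38 and 2.33 CPM with TNF. Every LED library lay below every TNF library (-0.77 ± 0.31, edgeR adjusted p = 0.177). Its exons overlap CDKL1 on the opposite strand, and the sources used here do not say whether reads were counted by strand.

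Of 16 regulators of mitochondrial biogenesis 1 rose, none fell and 15 did not pass by edgeR, where 2.44% of all genes rose and 2.73% fell. Their median log2 fold change was 0.47, against 0.06 for the respiratory chain members. DESeq2, which called 12.7% of all genes, called 6 higher (GABPA, GABPB1, POLG2, PPARGC1A, PPARGC1B and TFB2M) and 1 lower (TFB1M). The limma-voom fit, which called 4.78% of all genes, called GABPA and GABPB1 higher. GABPB1, the beta chain of GABP, had 49.9, 51.2 and 46.3 CPM in TNF plus LED replicates 4, 6 and 10, against 28.4, 26.4 and 28.1 CPM in TNF replicates 2, 8 and 14. It rose by 0.83 ± 0.15 on the log2 scale (edgeR adjusted p = 0.0249), with groups far apart. In single-library omissions its log2 fold change stayed between 0.80 and 0.87, but the call was lost without TNF plus LED replicate 4, 6 or 10 (adjusted p = 0.107, 0.0798 and 0.0622) or TNF replicate 14 (0.0973). GABPA, the DNA-binding chain, had 68.1, 71.1 and 65.2 CPM with LED, against 43.1, 22.0 and 39.5 CPM with TNF (0.97 ± 0.25, edgeR adjusted p = 0.0548). It passed in 9 of 17 alternatives, with adjusted p from 0.00349 to 0.181. It overlaps ATP5PF on the opposite strand, and ATP5PF itself was at 0.15 ± 0.20.

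Other regulators were named after their values were seen, GABPA among them. The coactivator PPARGC1A had 3.09, 2.06 and 2.35 CPM with LED, against 1.17, 0.128 and 0.415 CPM with TNF (2.12 ± 0.65, edgeR adjusted p = 0.0902). Its groups did not overlap, at a low level. TFB2M, a mitochondrial transcription factor, was at 0.95 ± 0.25 (edgeR adjusted p = 0.0619) and its relative TFB1M, which methylates mitochondrial ribosomal RNA, at -0.81 ± 0.24 (0.0824). YY1 was at 0.46 ± 0.16 (0.133), TFAM, which packages mitochondrial DNA, at 0.42 ± 0.20 (0.252), and NRF1 at 0.01 ± 0.28 (0.989). The 22 tested members with GABP letters in the promoter had a median log2 fold change of 0.12 and the other tested members with a promoter 0.05. Split in the same way, the medians were 0.09 and 0.06 for NRF1 letters and 0.06 and 0.09 for YY1 letters. Over the libraries the members' median deviation had an SD of 0.27 with TNF plus LED and 0.16 with TNF. A link between promoter letters and the differences was not tested.

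**Figure D5:**
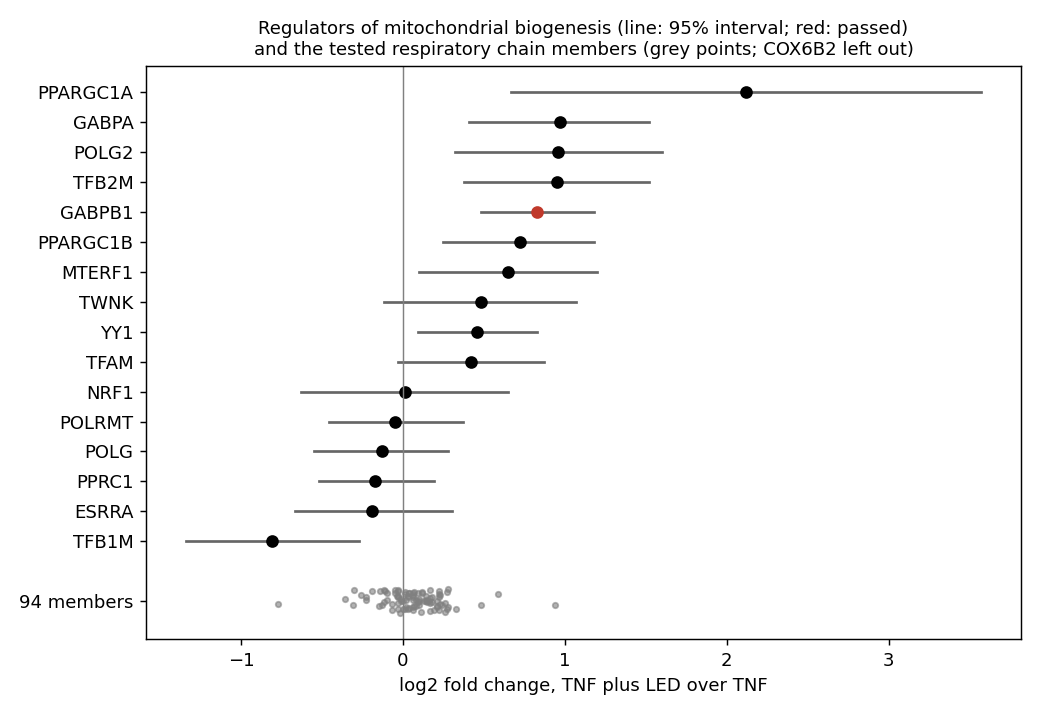
Fitted log2 fold changes of TNF plus LED over TNF for 16 regulators of mitochondrial biogenesis, with 95% intervals and the 1 called gene, GABPB1, in red, above grey points for 94 tested respiratory chain members (COX6B2 at 3.77 left out). Most member points lie near 0, while the intervals of several regulators lie above 0.

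Around the chain, the other gene lists gave no call by edgeR (0 of 95 genes), none by limma-voom and 1 by DESeq2, OGDH. Over all tested genes edgeR called 5.17%, limma-voom 4.78% and DESeq2 12.7%. By edgeR 8 of the 95 had an unadjusted p below 0.05, against 22.7% of all genes. The lists held 9 further complex I assembly factors, 4 of complex II, 6 of complex III, 22 of complex IV and 6 of ATP synthase. Of the last, ATP5IF1, ATP5MD and ATP5MPL are also members of complex V. They also held 15 genes of cytochrome c and ubiquinone synthesis, 6 other donors to ubiquinone, 19 TCA cycle genes and 8 carriers of nucleotides and phosphate. The median was 0.04 for the further complex I and -0.27 for complex II assembly factors, -0.15 for cytochrome c and ubiquinone synthesis and -0.09 for the TCA cycle. OGDH, a TCA cycle enzyme that acts on 2-oxoglutarate, had the lowest p. It was at 76.5 ± 14.2 CPM with LED and 132 ± 22.9 CPM with TNF (-0.79 ± 0.20, edgeR adjusted p = 0.0575). Over the alternatives its adjusted p ran from 0.00717 with DESeq2 to 0.171, and 3 of 17 called it. IDH2, the mitochondrial isocitrate dehydrogenase, was at -0.53 ± 0.19 (0.132). DHODH, which hands electrons from pyrimidine synthesis to ubiquinone, was at -0.69 ± 0.24 (0.126). SLC25A4, an ADP/ATP carrier, was at -0.61 ± 0.22 (0.131), and the ubiquinone synthesis genes COQ2 and COQ9 were at -0.52 and -0.39 (0.213 and 0.211). Of the assembly factor lists, the lowest p belonged to NUBPL and TMEM126B for complex I (-0.39 and 0.26), SDHAF1 and SDHAF4 for complex II (-0.29 and -0.54), TTC19 and UQCC3 for complex III (-0.45 and 0.23), COX19 and COA7 for complex IV (0.30 and 0.25), and ATPAF1 and TMEM70 for ATP synthase (-0.29 and 0.32), with edgeR adjusted p from 0.220 (TTC19) to 0.675 (UQCC3). The sulfide oxidoreductase SQOR was at -0.36 (0.304) and the carrier UCP2 at -0.65 (0.319). Of 78 mitochondrial ribosomal protein genes 1 rose, where 2.44% of all genes did, and their median was 0.04.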

How the data were processed

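RNA sequencing of 6 MH7A libraries, 3 per group by the labels, gave the table. Per the labels' protocols, ribosomal RNA was removed with probes and the rest fragmented and primed at random. The submitters' processing notes list limma, DESeq2, StringTie, HISAT2 and bcl2fastq 2.0, without roles, and the mouse build mm10, although the samples are labelled human. Human build, annotation and strandedness were not given in the sources used here. Estimated counts per gene were deposited by the authors as whole numbers, so no rounding was needed. Of values from 1 to 7, 41.8% equalled 4, so 1 fragment was taken as about 4 units and a count of 0 as allowing up to 3 fragments, or 12 units, per library (0.108 to 0.138 CPM). These limits cover counting error only.

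Genes were filtered with filterByExpr, scaled by TMM and tested with edgeR 4.0.16 (robust quasi-likelihood, two-sided, Benjamini-Hochberg over 13794 genes, threshold 0.05) in R 4.3.3. The SE is the log2 fold change divided by the square root of F, with 95% intervals from the t distribution of the fit. Nothing in the labels says that libraries are separate cultures, and p-values then cover only the spread among these libraries, possibly technical. Chi-square per degree of freedom between libraries of a group was 25.6 to 124, so none repeats another. Tested on simulated counts for 13617 genes, it found 37 of 99 genes with a log2 change of 1, 82 of 99 with 2, and made 16 false calls.

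The members and gene lists were chosen with earlier results of these data known. Named members were the 3 lowest p of each complex and assembly group, all SDH and detected COX members, and the core subunits; of other lists, called genes or the 2 lowest p. Some results for single genes under this rule are not reported here. Lengths came from GENCODE 29 (median of protein-coding transcripts), which matched 100 of 100 members. Of these, 27 share exon sequence with another gene on their strand, 40 on the opposite strand, and 47 have pseudogenes by name, so their counts are less certain. Alternatives were DESeq2 size factors, library totals, TMM without heat shock genes, other filters, DESeq2 1.42.0, limma-voom 3.58.1, counts divided by 4, length or GC trends removed, and single libraries left out. Leaving out the highest library of each group together was added after the data were seen.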

Additional observations from a re-analysis of the deposited data

How the results depend on the processing

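Over 17 alternatives, 42 named members gave 711 values, of which 707 stayed uncalled, 4 gained a call and 0 lost one. With 0 members called in the main fit, no call could be lost and no called direction compared. Staying uncalled also says little where few genes passed, as without TNF plus LED replicate 6 (0.574% of all genes). The log2 fold changes of some members changed sign, such as COX4I1 (-0.12 to 0.28) and COX8A (-0.22 to 0.21). Others kept theirs, such as NDUFAF4 (0.38 to 0.67) and ATP5S (-0.96 to -0.66). DESeq2 called 2 members, COX6B2 (log2 fold change 3.78, adjusted p = 0.0321) and NDUFAF4 (0.60, adjusted p = 0.0453), where the whole table had 1753 calls, 874 higher and 879 lower. Without TNF plus LED replicate 6 and TNF replicate 8 together, 2 members were called, the readthrough transcripts NDUFC2-KCTD14 (1.81, adjusted p = 0.0299) and ATP5MF-PTCD1 (-0.77, 0.0323), which share exons with NDUFC2 and ATP5MF, while 1669 genes were called in all, 763 higher and 906 lower. With a GC trend removed 1178 genes were called, 580 higher and 598 lower, and no member. In single-library omissions the whole table had 80 to 737 calls (59 to 314 higher, 21 to 423 lower), fewest without TNF plus LED replicate 6, and no member was called in any. The cause of these changes was not tested. The median log2 fold change of the members lay between -0.11 (without TNF plus LED replicate 6) and 0.18 (without TNF plus LED replicate 10 or TNF replicate 8); the SD of the members' median deviation was 0.27 over the TNF plus LED libraries and 0.16 over the TNF libraries.

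For 27 other named genes 434 of 459 values stayed on their side of the threshold, 21 gained a call and 4 lost one, all of these last for GABPB1. No paired analysis was possible because the groups share no replicate number. With 3 libraries per group, a member could differ by up to the bounds of its interval without being called, and members under 1 CPM rest on a few fragments.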
